A study of Mus musculus with 2 samples.

Results

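C-type lectins, Toll-like receptors and NOD-like receptors are families of receptors with which cells detect microbes and damaged tissue. The genes described here are the rows of the deposited gene table named Clec, Tlr or Nlrp followed by a digit, together with Nod1, Nod2, Pycard and Nlrx1. There were 70 such genes among 44166, of which 33 were C-type lectin genes, 12 Toll-like receptor genes and 25 genes of the NOD-like group. Levels come from whole skin of C57BL/6 mice aged 3 days, in 1 RNA sequencing library for wildtype animals and 1 for RNF31fl/fl-K14-cre animals. The floxed gene Rnf31 encodes HOIP, the catalytic subunit that builds linear ubiquitin chains. Cre recombinase came from a keratin 14 promoter transgene. That promoter works in basal keratinocytes, and a deletion made there is inherited by their descendants, so that the other cells of the skin are not its target. The sources used here do not give the number of animals per library, or whether the wildtype mice carried floxed alleles or Cre.

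Toll-like receptors sit at the cell surface or in endosomes and signal through the adaptors MyD88 and TRIF. Several C-type lectins of myeloid cells bind fungal, bacterial or self ligands and signal through the kinase Syk and the adaptor CARD9, while related lectins carry inhibitory motifs. NOD1 and NOD2 bind fragments of peptidoglycan in the cytosol, and some NLRP proteins assemble inflammasomes with the adaptor ASC, the product of Pycard. Linear ubiquitin chains take part in signalling from many of these receptors towards NF-kB.

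The WT-labelled library held 19619928 reads (92.56% aligned) and the KO-labelled library held 20511407 (93.59% aligned). With no replicates, all differences below are between 2 libraries, no test between genotypes could be made, and the spread between animals is unknown. Rnf31 itself stood at 3.95 FPKM (fragments per kilobase of transcript, scaled by depth) in the WT-labelled library and 5.4 in the other, so the targeted gene did not bear out the label, and the libraries are named by their labels throughout. Where the loxP sites lie is not stated, and a value per gene adds up exons and cells of every kind. All 7 keratinocyte and all 7 fibroblast markers checked were above an FPKM of 1 in at least 1 library, which fits the tissue label. In such bulk tissue, a lower or higher number of cells of a type and less or more RNA per cell cannot be told apart.

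Of 7 genes of Syk-coupled C-type lectins, Clec4d, Clec4n, Clec7a and Clec5a were at least 2-fold higher in the KO-labelled library, on a scale of log2(FPKM + 1). Clec4d, Clec7a and Clec5a were close to the limit of detection in the WT-labelled library, with about 3 to 6 fragments each. The galactose-binding lectin gene Clec10a, Clec4a1 and Clec4a2, the natural killer ligand gene Clec2d with its relative Clec2f, and the epidermal NOD-like gene Nlrp10 were also at least 2-fold higher. The 4 Toll-like receptor genes with an FPKM of 1 or more stayed within 2-fold on that scale, although the plain FPKM ratios of Tlr13 and Tlr4 were 4.9 and 2.23. The single gene at least 2-fold lower was Clec2l, which reached an FPKM of 1 only in the WT-labelled library. The most abundant lectin gene, Clec3b, was somewhat lower.

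The upstream sequences of 5 lectin genes are shown because 4 of them were called higher, Clec4e is the close partner gene of Clec4d, and a short motif was found in each. They are the bases just before the RefSeq transcription start in GRCm38.p6, read in the direction of the gene. Capitals mark GAGGAA or its reverse complement, the core recognised by the myeloid factor PU.1, in the first 4. In Clec2d they mark GAAA followed after 2 bases by a further GAAA, the core of the interferon-stimulated response element. For Clec5a the last 16 of 250 bases were left out because GENCODE places them in an exon. Clec7a has 2 annotated starts, of which the outer is shown.
Clec4d, chr6:123261857-123262106, plus strand: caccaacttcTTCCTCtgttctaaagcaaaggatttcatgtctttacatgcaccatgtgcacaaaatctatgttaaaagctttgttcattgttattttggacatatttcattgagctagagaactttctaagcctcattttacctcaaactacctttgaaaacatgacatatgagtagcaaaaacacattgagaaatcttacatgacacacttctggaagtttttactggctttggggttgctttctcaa
Clec4e, chr6:123289872-123290121, minus strand: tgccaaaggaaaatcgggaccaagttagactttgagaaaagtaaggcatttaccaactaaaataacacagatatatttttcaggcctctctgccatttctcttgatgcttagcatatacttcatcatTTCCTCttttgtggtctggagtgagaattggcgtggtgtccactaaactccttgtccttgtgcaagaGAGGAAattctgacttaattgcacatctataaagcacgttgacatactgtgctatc
Clec5a, chr6:40585822-40586055, minus strand: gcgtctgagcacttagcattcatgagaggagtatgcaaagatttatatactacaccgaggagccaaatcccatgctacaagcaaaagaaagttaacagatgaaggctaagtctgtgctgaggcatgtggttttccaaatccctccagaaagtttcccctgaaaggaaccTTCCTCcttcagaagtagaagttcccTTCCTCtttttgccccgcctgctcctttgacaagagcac
Clec7a, chr6:129472786-129473035, minus strand: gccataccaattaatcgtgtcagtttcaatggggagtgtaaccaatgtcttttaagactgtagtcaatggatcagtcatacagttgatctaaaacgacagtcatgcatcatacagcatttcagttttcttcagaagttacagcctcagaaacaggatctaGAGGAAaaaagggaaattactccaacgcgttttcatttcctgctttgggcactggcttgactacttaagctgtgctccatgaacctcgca
Clec2d, chr6:129180365-129180614, plus strand: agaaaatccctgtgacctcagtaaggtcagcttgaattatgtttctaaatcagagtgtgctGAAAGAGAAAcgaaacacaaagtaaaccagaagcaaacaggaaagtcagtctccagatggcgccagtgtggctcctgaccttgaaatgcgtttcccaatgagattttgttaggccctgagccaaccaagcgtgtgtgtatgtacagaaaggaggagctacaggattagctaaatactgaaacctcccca

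Both motifs were searched on both strands in the 250 bases before every RefSeq start, together with GGG followed after 5 bases by CC for NF-kB, and TGANTCA for AP-1, which can overlap the others. RefSeq promoter windows matched 54 of the 70 genes. GAGGAA was found before 11 of the 18 genes that had a window and were above the floor defined below, and in 25.8% of 10419 such genes in the whole table. Of the 18 genes, 6 were called higher by the rule below, and the rest of the genes called higher had no window. Of the 6, 4 held GAGGAA, namely Clec4a1, Clec4d, Clec5a and Clec7a, and the sequence of Clec4a1 is not shown. The remaining matches were before genes not called higher. The core of the interferon-stimulated element was found before 1 of the 18, Clec2d, and in 3.18% of all. The NF-kB pattern was found before 8 of the 18 and in 66.7% of all, and TGANTCA before 0 of the 18 and in 6.2% of all. In Clec4d the GAGGAA match starts 240 bases before the transcription start, and in Clec7a it starts 90 bases before. Clec4e and Clec5a hold 2 matches each, starting 123 and 56 bases before the start of Clec4e and 81 and 55 before that of Clec5a. The shown set and its motifs were picked with the expression values known, and a match is a stretch of letters, not a shown binding site.

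Ratios and calls were limited to genes whose FPKM reached 1 in either library, here called the floor. Of the 70 genes 24 passed it, 20 were listed at 0 in both libraries and 26 lay between. A gene was called higher or lower when log2 of (FPKM + 1), KO-labelled library minus WT-labelled library, was at least 1 or at most -1. The added 1 understates differences of low genes, so ratios of plain FPKM are given beside it. By this rule 10 of the 24 genes were higher, against a background of 7.59% of 14541 genes, and 1 was lower, against 4.09%. Their median log2 difference was 0.81, where that of all genes above the floor was -0.08. These counts describe the genes and do not test them. Of the 24 genes, 7 passed the floor only through the KO-labelled library and were bound to be higher there. A further 2, Clec2l and Tlr5, passed it only through the WT-labelled library and were bound to be lower in the other. Among the 15 genes at or above the floor in both libraries, 5 were called higher and 0 lower, and their median was 0.58. Of all 12947 genes at the floor in both, 5.49% were called higher and 3.02% lower, and the median was -0.09. The genes nearest the floor were Tlr5 (highest value 1.06) and Tlr13 (1.12) just inside, and Tlr7 (0.834) and Tlr3 (0.724) just outside. Of the 26 genes detected but under the floor, 21 had the larger value in the KO-labelled library, as had 50.3% of the 8642 such genes in the whole table.

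**Figure D1:**
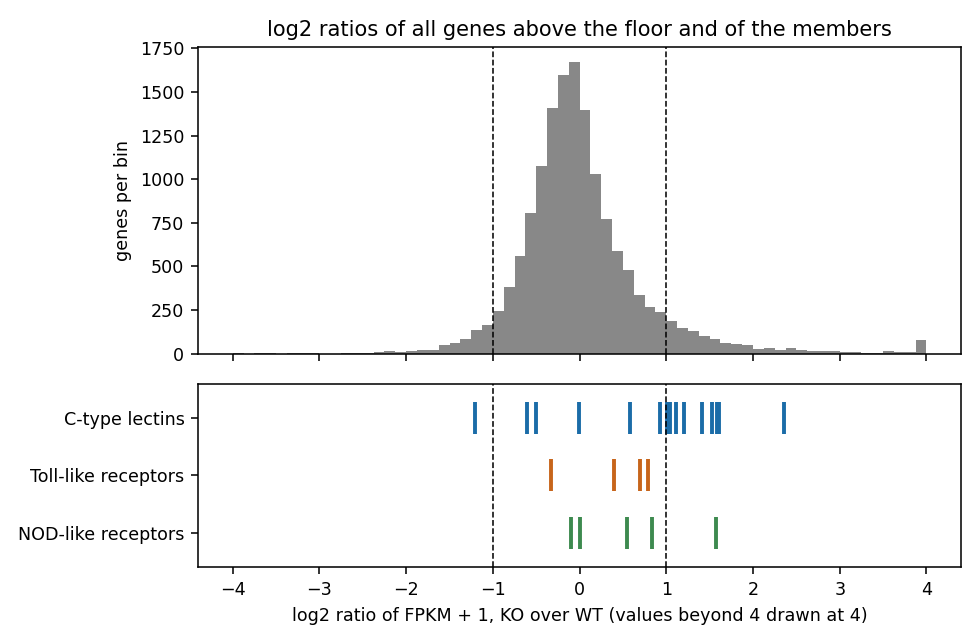
The upper panel is a histogram of the log2 difference of FPKM + 1 (KO-labelled library minus WT) over the 14541 genes above the floor, and the lower panel marks the 24 receptor and adaptor genes by family, with dashed lines at -1 and 1. Most C-type lectins lie right of the peak, with 9 past the upper line and Clec2l past the lower, while the 4 Toll-like receptor genes lie between the lines.

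Each ratio has an exact binomial 95% interval, taken from fragments estimated out of FPKM and transcript length, which covers no more than counting error. At this depth an FPKM of 1 over 2 kb corresponds to about 31.0 fragments in the WT-labelled library and 32.0 in the KO-labelled library. For 17 of the 24 genes the interval lay above 1, and for 4 it lay below. Over all genes with an annotated length these shares were 30.1% and 41.7%. The authors' deposited table marked 96 genes as significant and 0 of the 70, with a lowest q-value among the 70 of 0.117, that of Clec2e. That comparison is between the same 2 libraries, not between conditions.

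Of the 7 genes of Syk-coupled lectins, 4 passed the floor and were called higher. Clec4d, Clec7a and Clec5a passed it only through the KO-labelled library and were bound to be higher there, and Clec4n was at the floor in both. Clec4d (ENSMUSG00000030144, chromosome 6, 123262111 to 123275265 in GRCm38) encodes MCL, a receptor for mycobacterial glycolipid that pairs with the Fc receptor gamma chain. Its FPKM was 0.163 in the WT-labelled library and 4.98 in the KO-labelled library, with a log2 difference of 2.36 and a ratio of 30.6 (11.3 to 167, the counting interval as elsewhere). That log2 difference was the largest of the 24, at rank 227 of 14541, though the lower value rests on about 3 fragments. Clec7a (ENSMUSG00000079293, chromosome 6, 129461591 to 129472779) encodes dectin-1, the receptor for fungal beta-glucan. It stood at 0.112 and 2.35 FPKM in the WT-labelled and KO-labelled libraries, with a ratio of 21 (7.85 to 78.2). Clec5a (ENSMUSG00000029915, chromosome 6, 40574894 to 40585821), whose product signals through the adaptor DAP12, stood at 0.106 and 1.94, with a ratio of 18.4 (8.35 to 52.1). All 3 were thus barely detected in 1 library, with about 3 to 6 fragments, and clearly present in the other, with 86 to 116.

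Clec4n, the gene of the mannan receptor dectin-2, was the member of this set with a sizeable level in both libraries. Its FPKM was 2.2 in the WT-labelled library and 8.75 in the KO-labelled library, with a ratio of 3.98 (2.87 to 5.55). Clec4e encodes Mincle, a receptor for mycobacterial cord factor, and stayed under the floor at 0.0292 and 0.454 FPKM, or about 2 and 35 fragments. The platelet lectin gene Clec1b was listed at 0 in both libraries. Clec9a, a receptor for dead cells on cross-presenting dendritic cells, was at 0.0421 and 0.0807. The summed FPKM of the 7 genes was 2.65 in the WT-labelled library and 18.6 in the KO-labelled library, a ratio of 7.

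**Figure D2:**
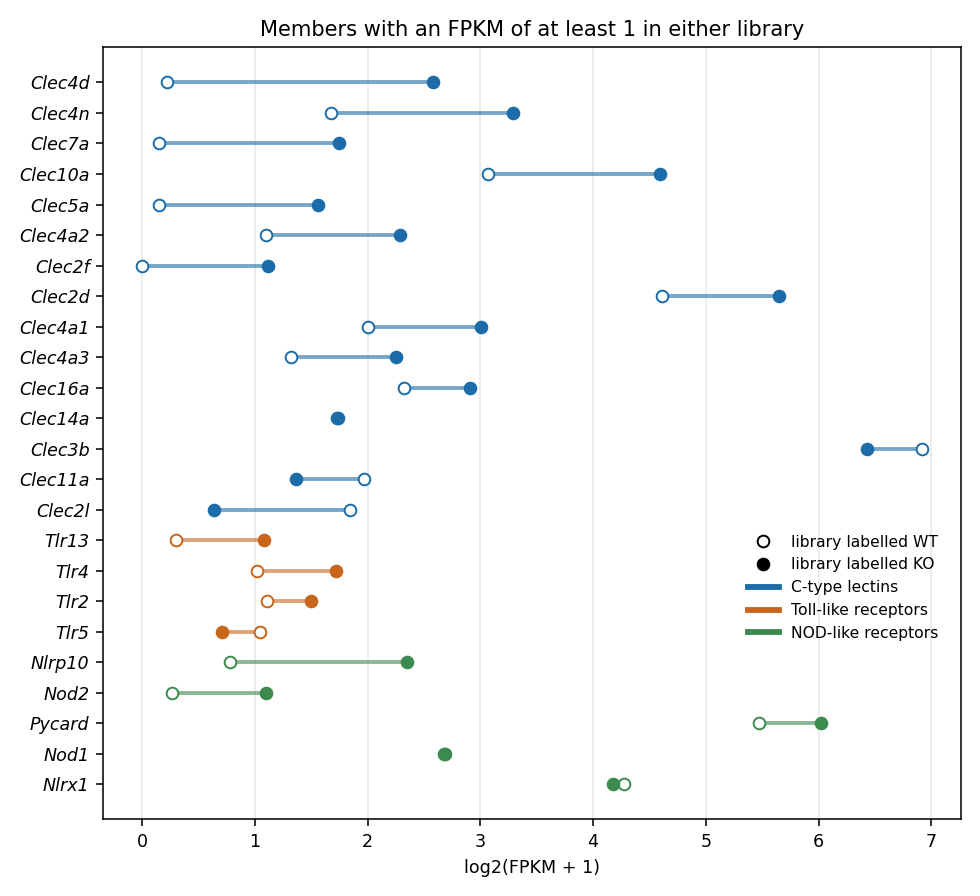
Each line joins the log2(FPKM + 1) of 1 gene in the WT-labelled library (open circle) and the KO-labelled library (filled circle), for the 24 genes above the floor, coloured by family. Clec4d, Clec7a, Clec5a and Clec2f start near 0 and end above 1, while Clec3b, the most abundant, moves left from 120 to 85 FPKM.

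The neighbouring Clec4a and Clec4b genes encode the DCIR and DCAR group, in which some DCIR proteins carry an inhibitory motif and DCAR proteins pair with an activating chain. Clec4a2, the gene of DCIR, stood at 1.14 FPKM in the WT-labelled library and 3.89 in the KO-labelled library, a ratio of 3.43 (2.43 to 4.89). Clec4a1 was at 3 and 7.04 (ratio 2.35, 1.79 to 3.16). Clec4a3 was at 1.5 and 3.75 (ratio 2.51, 1.63 to 3.98). The inhibitory DCIR gene was thus higher in the same library as the activating lectin genes. By the 2-fold rule Clec4a2 and Clec4a1 were higher, with log2 differences of 1.20 and 1.01, and Clec4a3 stayed inside at 0.93. Clec4a4, Clec4b1 and Clec4b2 had at most 0.142 FPKM in either library. Of the 50-base windows of Clec4a2, 8.2% also occur in another gene, mostly Clec4b1, so a small part of its reads could be shared.

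Clec10a (ENSMUSG00000000318, chromosome 11, 70156197 to 70170834 in GRCm38) encodes MGL1, a lectin for galactose-type sugars found on macrophages and dendritic cells of the dermis. Its FPKM was 7.36 in the WT-labelled library and 23.2 in the KO-labelled library (ratio 3.15, 2.75 to 3.63). Its neighbour and close copy Mgl2 was at 3.81 and 7.29, and 10.6% of the 50-base windows of Clec10a occur in another gene, mostly Mgl2, so that the split of reads between them is uncertain in part. Among the 24 genes this was the largest such share.

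The Clr group, encoded by the Clec2 genes of the natural killer gene complex, includes ligands for receptors on natural killer cells. Clec2d encodes Clr-b, a ligand of the inhibitory receptor made from Klrb1b. It was the most abundant gene of the group at 23.5 FPKM in the WT-labelled library and 49.3 in the KO-labelled library (ratio 2.1, 1.87 to 2.36). Klrb1b itself was at 0.103 and 0.333, so the ligand gene was far above its receptor gene in both libraries. Clec2f and Clec2e were listed at 0 in the WT-labelled library, and an exact 0 can be a failed estimate, so they have no fold. In the KO-labelled library Clec2f stood at 1.17 FPKM, from about 12 fragments of a short transcript, and Clec2e at 0.716, from about 24. Of the whole table, 0.846% of the genes above the floor were likewise listed at 0 in the first library and at 1 or more in the second. The 4 remaining Clec2 genes of the group had at most 0.188 FPKM.

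Many of these lectin genes, though not Clec10a on chromosome 11 or Clec5a elsewhere on chromosome 6, lie in 2 clusters on chromosome 6. The cluster from Clec4a1 to Clec4e (chromosome 6, 122921848 to 123289870 in GRCm38) holds 9 of the genes, of which 5 passed the floor and 4 were higher. No other gene of that stretch passed the floor. The stretch from Clec2j to Clec7a (128652416 to 129472779) holds 13, of which 3 passed, namely Clec2d, Clec2f and Clec7a, and all 3 were higher. Of 26 other genes in that stretch 3 passed the floor, and none of the 3 differed 2-fold. Of these 7 genes called higher in the clusters, Clec4d, Clec7a and Clec2f passed the floor only through the KO-labelled library. The shares over all genes above the floor were 7.59% higher and 4.09% lower.

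**Figure D3:**
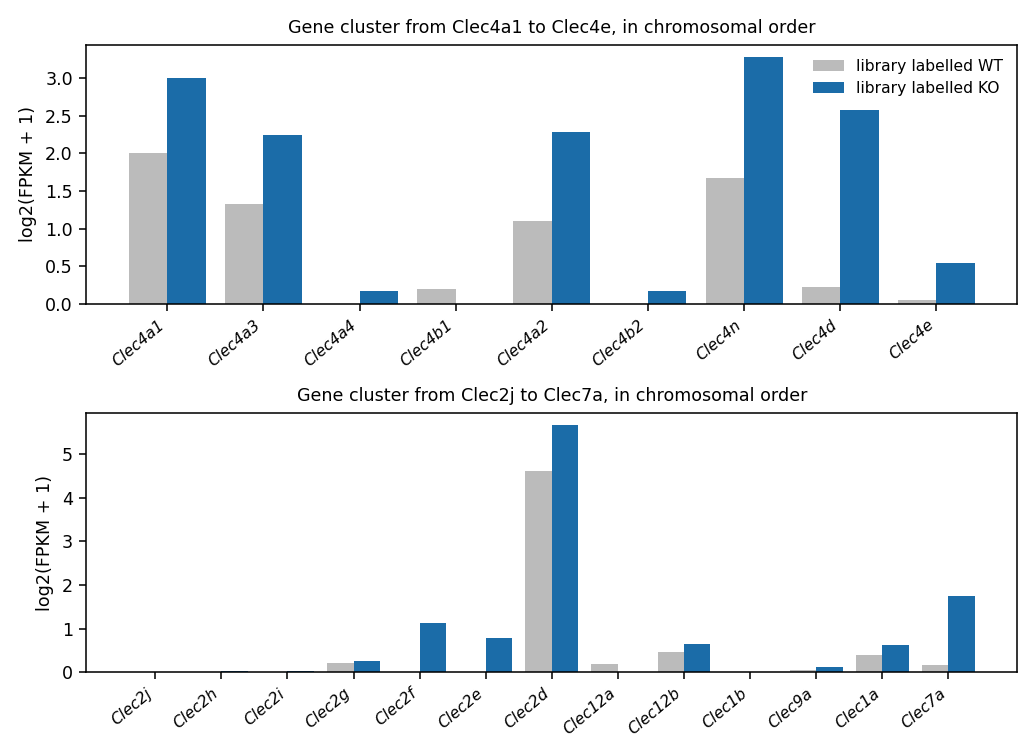
Bars from 0 give the log2(FPKM + 1) of each lectin gene in chromosomal order in the libraries labelled WT (grey) and KO (blue), for the 9 genes from Clec4a1 to Clec4e and the 13 from Clec2j to Clec7a. In the upper cluster Clec4n and Clec4d reach 8.75 and 4.98 FPKM in the KO-labelled library, and in the lower Clec2d stands far above its neighbours in both libraries.

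The lectins outside these groups did not share a direction. Clec3b, encoding the secreted plasminogen-binding protein tetranectin, was the most abundant of all at 120 FPKM in the WT-labelled library and 85 in the KO-labelled library (ratio 0.706, 0.658 to 0.758). Clec11a, a secreted growth factor gene also called osteolectin, was at 2.92 and 1.57 (ratio 0.536, 0.4 to 0.719). Clec2l (ENSMUSG00000079598, chromosome 6, 38663069 to 38680864), a lectin-like gene related to the Clr group, was at 2.59 and 0.552 (ratio 0.213, 0.111 to 0.409), with a log2 difference of -1.21. Clec2l passed the floor only through the WT-labelled library, so its direction was fixed by the floor. Lower values of Clec3b and Clec11a stood beside fibroblast markers with a median log2 difference of -0.43, of which 6 of 7 were lower in the KO-labelled library and none past 2-fold. Their summed FPKM was 3263.5 and 2489.1, and their part in these differences was not tested. Clec14a, a gene of endothelial cells, was at 2.33 and 2.31 (ratio 0.989, 0.796 to 1.24). Clec16a, which has a role in mitophagy, was at 4.01 and 6.5 (ratio 1.62, 1.43 to 1.84).

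**Figure D4:**
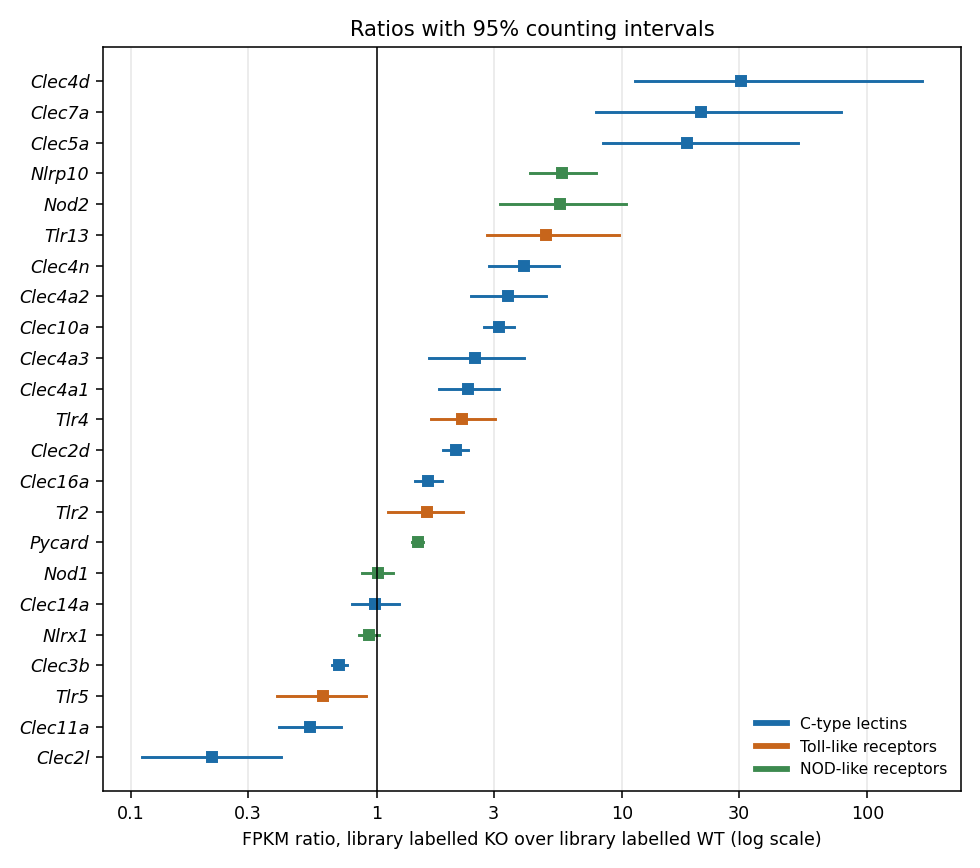
Squares are FPKM ratios (KO-labelled library over WT, log axis) and lines are 95% counting intervals, for the 23 genes above the floor that were above 0 in both libraries, coloured by family. Clec4d, Clec7a and Clec5a lie at 18.4 to 30.6 with wide intervals, whereas Nod1, Clec14a and Nlrx1 have intervals that include 1.

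Toll-like receptor genes were all low, with summed FPKM of 5.12 in the WT-labelled library and 8.62 in the KO-labelled library over 12 genes. None of the 4 above the floor differed 2-fold on the log2(FPKM + 1) scale. Tlr4, the lipopolysaccharide receptor gene, was at 1.03 and 2.3 FPKM (ratio 2.23, 1.66 to 3.04). Tlr2, the lipoprotein receptor gene, was at 1.15 and 1.83 (ratio 1.6, 1.11 to 2.26). The flagellin receptor gene Tlr5 had the opposite direction, at 1.06 and 0.637 (ratio 0.603, 0.392 to 0.908). It passed the floor only through the WT-labelled library, so its direction was fixed by the floor. Tlr13, which encodes an endosomal receptor for bacterial ribosomal RNA in mice, was at 0.229 and 1.12, a ratio of 4.9 (2.83 to 9.7) from about 14 and 73 fragments. Tlr13 passed the floor only through the KO-labelled library and was bound to be higher there. The plain ratios of Tlr13 and Tlr4 exceeded 2, but their log2 differences with the added 1 were 0.79 and 0.70. Under the floor, the nucleic acid receptor genes were at 0.356 and 0.834 for Tlr7, 0.724 and 0.637 for Tlr3 and 0.197 and 0.318 for Tlr9. Tlr1 and Tlr6, whose products pair with TLR2, were at 0.122 and 0.493, and 0.167 and 0.252. They share sequence with each other, in 15.3% of the windows of Tlr1. Tlr11 was listed at 0 in both libraries.

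Most partners of Toll-like receptors stayed within 2-fold, with a few of them higher in the KO-labelled library. Of 26 listed accessories, adaptors and kinases 23 were above the floor, 5 of them higher and 0 lower, with a median log2 difference of 0.14. Over all genes above the floor 7.59% were higher and 4.09% lower. The 5 were Cd14, the lipopolysaccharide co-receptor gene (1.77 and 9.06 FPKM, ratio 5.11, 3.71 to 7.21), the lipopolysaccharide-binding protein gene Lbp (3.9 and 13.7), the adaptor gene Myd88 (13.6 and 30.3, ratio 2.23, 2.02 to 2.48), the kinase gene Irak2 (1.62 and 4.76) and Irf7 (6.82 and 27.7), a factor for type I interferon genes. Irak1 was at 15.5 and 16.1, Tirap at 2.34 and 2.31, and Ticam1, the gene of TRIF, at 5.3 and 3.98. Of these 2 adaptor genes, Myd88 was thus higher and Ticam1 slightly lower in the KO-labelled library. The TLR4 partner gene Ly96 was at 2.1 and 3.04 (ratio 1.45, 0.794 to 2.55).

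Of the 5 NOD-like genes above the floor, Nlrp10 alone was at least 2-fold higher. NLRP10 is a NOD-like protein without leucine-rich repeats that is made in keratinocytes. Its gene (ENSMUSG00000049709, chromosome 7, 108921852 to 108930178 in GRCm38) was at 0.718 FPKM in the WT-labelled library and 4.08 in the KO-labelled library (ratio 5.69, 4.21 to 7.85), and it passed the floor only through the latter. Of 7 keratinocyte markers 3 were higher and 1 lower in the KO-labelled library, where 7.59% and 4.09% of all genes above the floor were. The summed FPKM of the 7 markers was 3933.4 and 17920.6 (ratio 4.56), and most of the larger sum was Krt14, at 816 and 12590.1. Krt14 had a ratio of 15.4, Dsg3 of 3.88, Krt5 of 2.86, Perp of 1.92, Trp63 of 0.892, Krt1 of 0.762 and Krt10 of 0.278. The part of these genes in the Nlrp10 value was not tested. The peptidoglycan sensor gene Nod2 was at 0.204 and 1.14, a ratio of 5.6 (3.19 to 10.4), and a log2 difference of 0.83 that kept it inside the rule. Nod1, its relative, was at 5.39 and 5.45 (ratio 1.01, 0.871 to 1.17). Nod2 passed the floor only through the KO-labelled library, whereas Nod1 was nearly equal in both. Pycard, the ASC adaptor gene, was at 43.4 and 63.8 (ratio 1.47, 1.4 to 1.55). Nlrx1, the gene of a mitochondrial NOD-like protein, was at 18.4 and 17.1 (ratio 0.929, 0.852 to 1.02). Pycard and Nlrx1 share 12.8% and 11.9% of their exonic bases with genes on the opposite strand that stood at 0.383 FPKM or less, and whether strand was used in counting is not given.

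The inflammasome sensor gene Nlrp3 was listed at 0 in the WT-labelled library and at 0.156 in the KO-labelled library, and Nlrp6 at 0 and 0.235, from about 10 and 17 fragments. These 2 are named after their values were seen. Nlrp1b was at 0.0175 and 0.0891, and Nlrp1a and Nlrp12 were listed at 0 in both. The 14 genes of Nlrp2, Nlrp4, Nlrp5, Nlrp9 and Nlrp14, a group known from oocytes and early embryos, had at most 0.106 FPKM, and 12 of them were listed at 0 in both libraries. The abundant adaptor gene thus stood beside Nlrp genes that were near 0, apart from Nlrp10.

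Of 22 listed partners of inflammasomes and NOD receptors 13 were above the floor, 5 of them higher and 0 lower, with a median of 0.58. The shares over all genes above the floor were 7.59% higher and 4.09% lower. Il1b, an inflammasome substrate gene, was at 0.172 and 4.56 FPKM (ratio 26.5, 9.08 to 89.8), and Il18, the other substrate gene, at 4.34 and 25.8 (ratio 5.93, 4.48 to 7.88). Nlrc5, an activator of MHC class I genes, was at 1.29 and 10.7, the guanylate-binding protein gene Gbp5 at 0.214 and 2.12, and the caspase gene Casp4 at 1.47 and 6.15. Casp1, the inflammasome protease gene, was at 0.944 and 1.91 (ratio 2.02, 1.19 to 3.54) and Ripk2, the kinase gene downstream of NOD receptors, at 4.29 and 5.05 (ratio 1.18, 0.965 to 1.44). Il1b, Gbp5 and Casp1 passed the floor only through the KO-labelled library and were bound to be higher there. Both substrate genes had larger ratios than Casp1 and Ripk2, though that of Il1b rests on 0.172 FPKM in the WT-labelled library.

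Of 16 listed signalling partners of C-type lectins all passed the floor, and 4 of them were higher and 0 lower at a median log2 difference of 0.56. Among all genes above the floor 7.59% were higher and 4.09% lower. Vav1, Plcg2 and Card9 passed the floor only through the KO-labelled library and were bound to be higher there. Fcer1g, the gene of the Fc receptor gamma chain that carries signals of dectin-2, MCL and Mincle, was at 32.7 and 91.4 FPKM (ratio 2.79, 2.47 to 3.17). Plcg2 was at 0.993 and 4.08, Vav1 at 0.435 and 2.48 and the phosphatase gene Inpp5d at 2.04 and 6.16. Tyrobp, the gene of DAP12, was at 45 and 83.4 (ratio 1.85, 1.65 to 2.1), and Card9 at 0.645 and 1.92 (ratio 2.98, 1.8 to 5.43). Syk itself was the only one of the 16 with a log2 difference below 0, at 3.76 and 2.96 FPKM (ratio 0.788, 0.664 to 0.931).

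**Figure D5:**
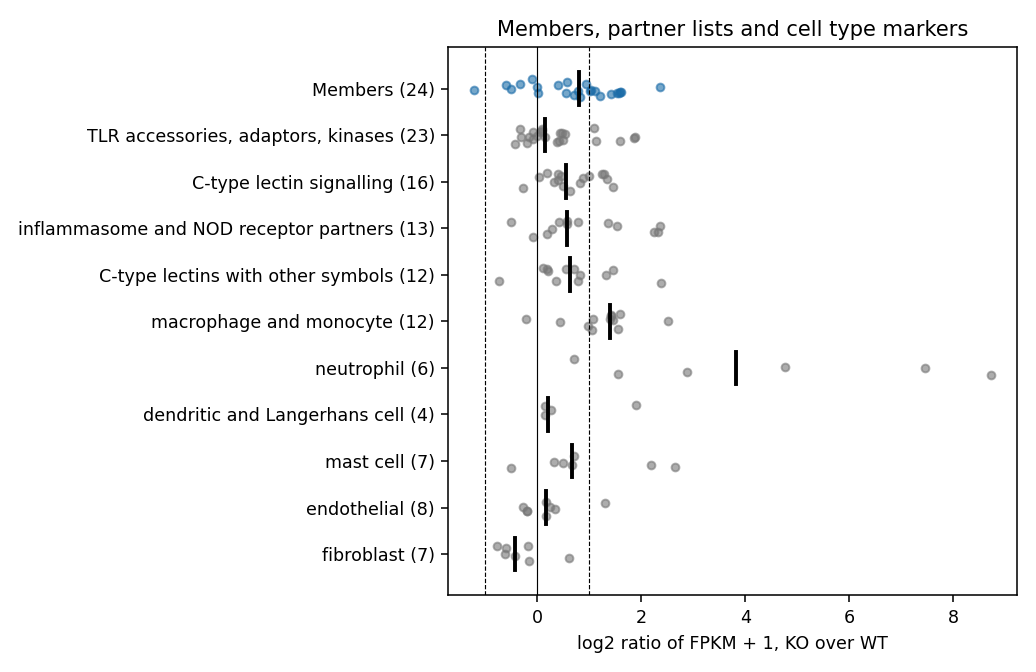
Points are log2 differences of FPKM + 1 (KO-labelled library minus WT) of genes above the floor, with the number of genes in parentheses, bars at the medians and dashed lines at -1 and 1, for the receptor genes, 4 partner lists and 6 marker lists. The receptor genes have a median of 0.81, macrophage and monocyte markers of 1.41, and fibroblast markers of -0.43.

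Most macrophage, monocyte and neutrophil markers above the floor were higher in the same library as the lectin genes called higher. Of 13 macrophage and monocyte markers 12 were above the floor, 9 higher and 0 lower, where 7.59% and 4.09% of all genes above it were. The summed FPKM of the 13 was 219 in the WT-labelled library and 559 in the KO-labelled library, a ratio of 2.56. Adgre1 was at 2.27 and 5.87 (ratio 2.59, 2.08 to 3.23), C1qa at 55 and 147, and Csf1r at 9.38 and 13 (ratio 1.39, 1.26 to 1.53). Mertk was at 2.8 and 2.29 (ratio 0.819, 0.657 to 1.02). The integrin gene Itgam was at 0.331 and 2.93 (ratio 8.85, 5.79 to 14.1). The plain ratios of Clec10a, Clec4a1, Clec4a2, Clec4a3 and Clec4n lay between 2.35 and 3.98, beside 2.56 for the summed macrophage markers, most of which is C1qa, C1qb and C1qc. The ratios of Clec5a, Clec7a and Clec4d, from 18.4 to 30.6, lay above that of the sum. Ly6c2, a gene of inflammatory monocytes, was at 0.111 and 5.37 (ratio 48.4, 18.8 to 139), and its interval overlaps those of the 3 lectin genes. Ccr2, another monocyte gene of the list, stayed under the floor at 0.113 and 0.262. The Fc receptor gene Fcgr1 was at 0.8 and 4.4 (ratio 5.51, 3.77 to 8.3). Itgam, Ly6c2 and Fcgr1 passed the floor only through the KO-labelled library and were bound to be higher there. Of 11 neutrophil markers 6 were above the floor, 5 higher and 0 lower, and Retnlg and Ngp, at 26.2 and 6.37 FPKM under the KO label, were listed at 0 under the other. Ltf was at 0.0235 and 1.99 (ratio 84.9), Csf3r at 0 and 0.457, and Ly6g at 0 in both. Retnlg, Ngp and Ltf passed the floor only through the KO-labelled library and were bound to be higher there. Camp was at 3.53 and 6.38 (ratio 1.81). Under the floor, Mpo was at 0.207 and 0.067 and Elane at 0.204 and 0.215. The neutrophil sum of 20.1 and 4681.7 was mostly S100a8 and S100a9, which keratinocytes also make. Of 11 dendritic and Langerhans cell markers 4 were above the floor, 1 higher and 0 lower (sum 106 and 126), with Flt3 at 0 in both libraries. Sums of other lists were also larger in the KO-labelled library. They were 20 and 81.3 for T, NK and innate lymphocytes, with 2 of 11 markers above the floor. Most of that sum was Trbc2, at 17.3 and 76.5. Trbc1, at 0.798 and 2.78, passed the floor only through the KO-labelled library and was bound to be higher there. Under the floor, Cd3e was at 0.0531 and 0.053, Cd3g at 0.681 and 0.207, Cd4 at 0.512 and 0.671 and Nkg7 at 0.501 and 0.846. Mast cell markers summed to 421 and 653, and platelet and megakaryocyte markers to 133 and 221. The B cell sum was lower, at 4.04 and 1.37, mostly through Ighm at 3 and 0.325, the only 1 of 5 markers above the floor. The part of these cells in the lectin values was not tested.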

How the data were processed

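Skin RNA was sequenced by the authors in 2 libraries, 1 per genotype. The submitters' processing notes name cutadapt 1.9.1, HISAT2 2.0.4, Cufflinks 2.2.1 and the build GRCm38. The authors' deposited table gives FPKM per gene and library from Cuffdiff, per the file headers, with the p-value and q-value of their own comparison. A deposited sheet gives the count of reads and the fraction aligned per library. The sources used here give neither the annotation release nor the use of strand.

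The measure was the log2 difference of FPKM + 1, with a floor of 1 FPKM in either library and a 2-fold rule. No p-value was computed, because each genotype has 1 library. Fragments were estimated from FPKM, the longest GENCODE M21 transcript and the step that 1 fragment is worth. The step was read from single-transcript genes of at least 3000 bases, at values up to 4 steps. Of 340 values, 85.3% lay within 0.25 of a whole step in the WT-labelled library and 80.9% of 340 in the KO-labelled library. Chance gives 50% for a step fixed beforehand. The step was chosen to make this share largest, so the share by chance is higher than that. Intervals are exact (Clopper-Pearson, 95%, SciPy 1.17.1), reflect counting error alone, without variation between animals or the error of the estimate. The code was tested on simulated data. Windows of 50 bases were compared across GENCODE transcripts.

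All genes above the floor are named, with the 10 highest below it and, for partner lists, those past the rule and some others. Members, lists and alternatives were chosen with earlier results of these data known. A second identifier of Itgam was left out.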

Additional observations from a re-analysis of the deposited data

How the results depend on the processing

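The 6 alternatives changed the pseudocount to 0.1 or 0.5, the floor to 2 or 0.5 FPKM, or the scaling. The count of higher receptor genes was 10 and ranged from 8 to 14, and 1 gene was lower under each of the 6. Of all genes above the floor 7.59% were higher, and from 6.8% to 10.2% under the alternatives, with 10.2% at a pseudocount of 0.1. The share lower was 4.09%, and from 3.48% to 7.46%. The receptor genes above the floor numbered 24, but 18 with a floor of 2 and 29 with a floor of 0.5. Their median log2 difference of 0.81 moved to 1.15 with a pseudocount of 0.1, to 1.07 with 0.5 and to 0.7 with a floor of 0.5. Over all genes, 595 were lower, and 1085 with a pseudocount of 0.1. The smaller pseudocounts took Clec4a3, Nod2 and Tlr13 past the 2-fold rule, and that of 0.1 also Tlr4. Scaling without the 50 most abundant genes left Clec2d and Clec4a1 just inside it, while scaling by the median of ratios took Clec4a3 past it. The direction of Clec14a turned with the median of ratios, and that of Nod1 without the most abundant genes, both close to 0. The partner lists held 17 higher genes, from 17 to 22 under the alternatives, and 0 lower. All genes called higher were 65% of calls, 71.2% with the median of ratios, and 57.7% with a pseudocount of 0.1. No paired analysis was possible because each genotype has 1 library, and for the same reason no library could be left out. Low genes such as Clec4d, Clec5a and Clec7a rest on 3 to 6 fragments in the WT-labelled library, which makes their ratios imprecise.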

Other observations

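C-type lectin genes that carry other symbols were described from a list of 40, of which 12 were above the floor. In the KO-labelled library 3 of them were higher and 0 lower, with a median log2 difference of 0.64. Over all genes above the floor the shares were 7.59% and 4.09%. Thbd, the gene of the anticoagulant receptor thrombomodulin, was at 3.53 FPKM in the WT-labelled library and 22.6 in the KO-labelled library (ratio 6.41, 5.54 to 7.49). Selp, the gene of P-selectin, an adhesion lectin of activated endothelium and platelets, was at 0.395 and 2.49 (ratio 6.31, 3.98 to 10.5). The macrophage mannose receptor gene Mrc1 was at 5.73 and 17.5 (ratio 3.05, 2.75 to 3.39). Sele, the E-selectin gene, was at 0.493 and 1.64 (ratio 3.32, 2.06 to 5.65), inside the 2-fold rule through the pseudocount. Cd93 was the exception in direction, at 4.55 and 2.34 (ratio 0.516, 0.439 to 0.601). Selp, Sele, Colec11 (0.648 and 1.7), Pla2r1 (0.727 and 1.55) and Cd72 (0.815 and 1.06) passed the floor only through the KO-labelled library. These genes were bound to be higher there, which also raises the median of the list. Of 9 endothelial markers 8 were above the floor, with 1 higher and 0 lower, a median of 0.17 and sums of 77.1 and 97. The part of endothelial or other cells in the values of Selp, Sele and Thbd was not tested. The Langerhans cell lectin gene Cd207 was under the floor at 0.144 and 0.196.

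Among the receptor genes that were detected but under the floor, beside Clec2e, Clec4e and the Toll-like receptor genes given above, Clec12b was at 0.369 and 0.566, Clec1a at 0.322 and 0.542 and Clec18a at 0.0285 and 0.423. Clec12a, the gene of an inhibitory myeloid lectin, went the other way, at 0.14 in the WT-labelled library and listed at 0 in the KO-labelled library. That contrasts with Clec7a, its neighbour in the same gene complex, and was picked after the values were seen.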
